A study of Macaca mulatta with 15 samples.

Results

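The IFIT genes encode the interferon-induced proteins with tetratricopeptide repeats. They were followed in T cells of rhesus macaques drawn after and before treatment with 2-hydroxypropyl-beta-cyclodextrin, a cyclic sugar that takes up cholesterol. The members were the genes of the count table with the symbols IFIT1, IFIT2, IFIT3 and IFIT5, which made 4 of 34884 genes, and all 4 passed the filter on low counts. The family was chosen by its measured change with treatment in these libraries, above all that of IFIT2 and IFIT3, so every after-against-before value of a member is a description with no test. The contrasts between T cell subsets, and between animals at a given time, did not choose the members and were tested. Differences between the changes of subsets or animals are built from the same after and before values, so for the members they too are a description.

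The libraries came from peripheral blood of 2 healthy animals, named RhM22 and RhDBCb. After-treatment libraries were drawn from animals given a 15% (w/w) solution under the skin, with a daily dose of 1 ml/kg and a course of at most 120 days, and before-treatment libraries from the same animals with no treatment. Each draw was divided into CD4 memory, CD4 naive, CD8 memory and CD8 naive T cells. This gave 15 libraries of polyadenylated RNA, 7 after and 8 before, from 4 draws and in 7 pairs of the same animal and subset. The after-treatment CD8 naive group is RhM22 alone, and that of RhDBCb was not analysed here. No untreated animal was followed over the same time, so treatment and time between draws cannot be told apart. With 1 draw per animal and time, p-values measure the spread between libraries.

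IFIT genes are among the most strongly inducible targets of type I interferon, which acts through its receptor and the kinases JAK1 and TYK2. In human cells IFIT1 binds viral RNA whose cap lacks the methylation of the host's own RNA and blocks its translation. IFIT2 and IFIT3 join IFIT1 in a complex, in which IFIT3 stabilises IFIT1, IFIT2 has also been tied to cell death, and IFIT5 binds RNA with free phosphates at its start and works apart from that complex.

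Total counts ran from 44414963 to 71787211 per library, with 13525 to 15445 genes detected. Summed T cell markers lay at 696 to 1440 CPM in every library, where CPM is the count scaled to the size of the library. Summed CD8 lineage markers lay at 894 to 1130 CPM in CD8 libraries and at most 4.38 CPM in CD4 libraries, and summed CD4 lineage markers at 2.52 to 26.5 CPM in CD8 libraries and 265 to 591 CPM in CD4 libraries. Summed memory markers were higher in memory than in naive cells in 7 of 7 draws and lineages, and summed naive markers lower in 7 of 7.

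Over all 15 libraries IFIT2 ran from 15.1 to 169 CPM and IFIT3 from 13.2 to 156 CPM. IFIT5 kept to a narrower band of 16.1 to 55.3 CPM, and IFIT1 was the lowest by count at 3.79 to 20.2 CPM. The smallest count behind any of these values was 294, so counting error was at most 5.83% of a value. That figure covers counting only, because PCR copies were not marked.

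Per length, in the deposited FPKM, IFIT2 ran from 1.67 to 18.7, IFIT3 from 1.23 to 14.6, IFIT5 from 2.91 to 9.75 and IFIT1 from 0.0894 to 0.483. The length behind these values followed the span of the gene in RefSeq, with Spearman's rho of 0.896 across 7920 genes, and for IFIT1 it was 4.63 times that for IFIT2. The low FPKM of IFIT1 therefore carries that long span, and the order of the members per length of mature transcript is not given here.

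The members are similar in sequence, and reads that fit several genes leave fractions in the expected counts. IFIT1 was a whole number in every library, and IFIT2 and IFIT3 held fractions in 1 library, where their sum was the whole number 4938. IFIT5 held fractions in all 15 libraries, completed to within 0.01 of a whole number by 1 gene without a symbol, whose count was at most 4.64% of that of IFIT5. IFIT1B, which RefSeq places inside the cluster, was not analysed here. The library kit does not mark strand, so reads from a transcript antisense to a member cannot be told apart from its own.

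**Figure D1:**
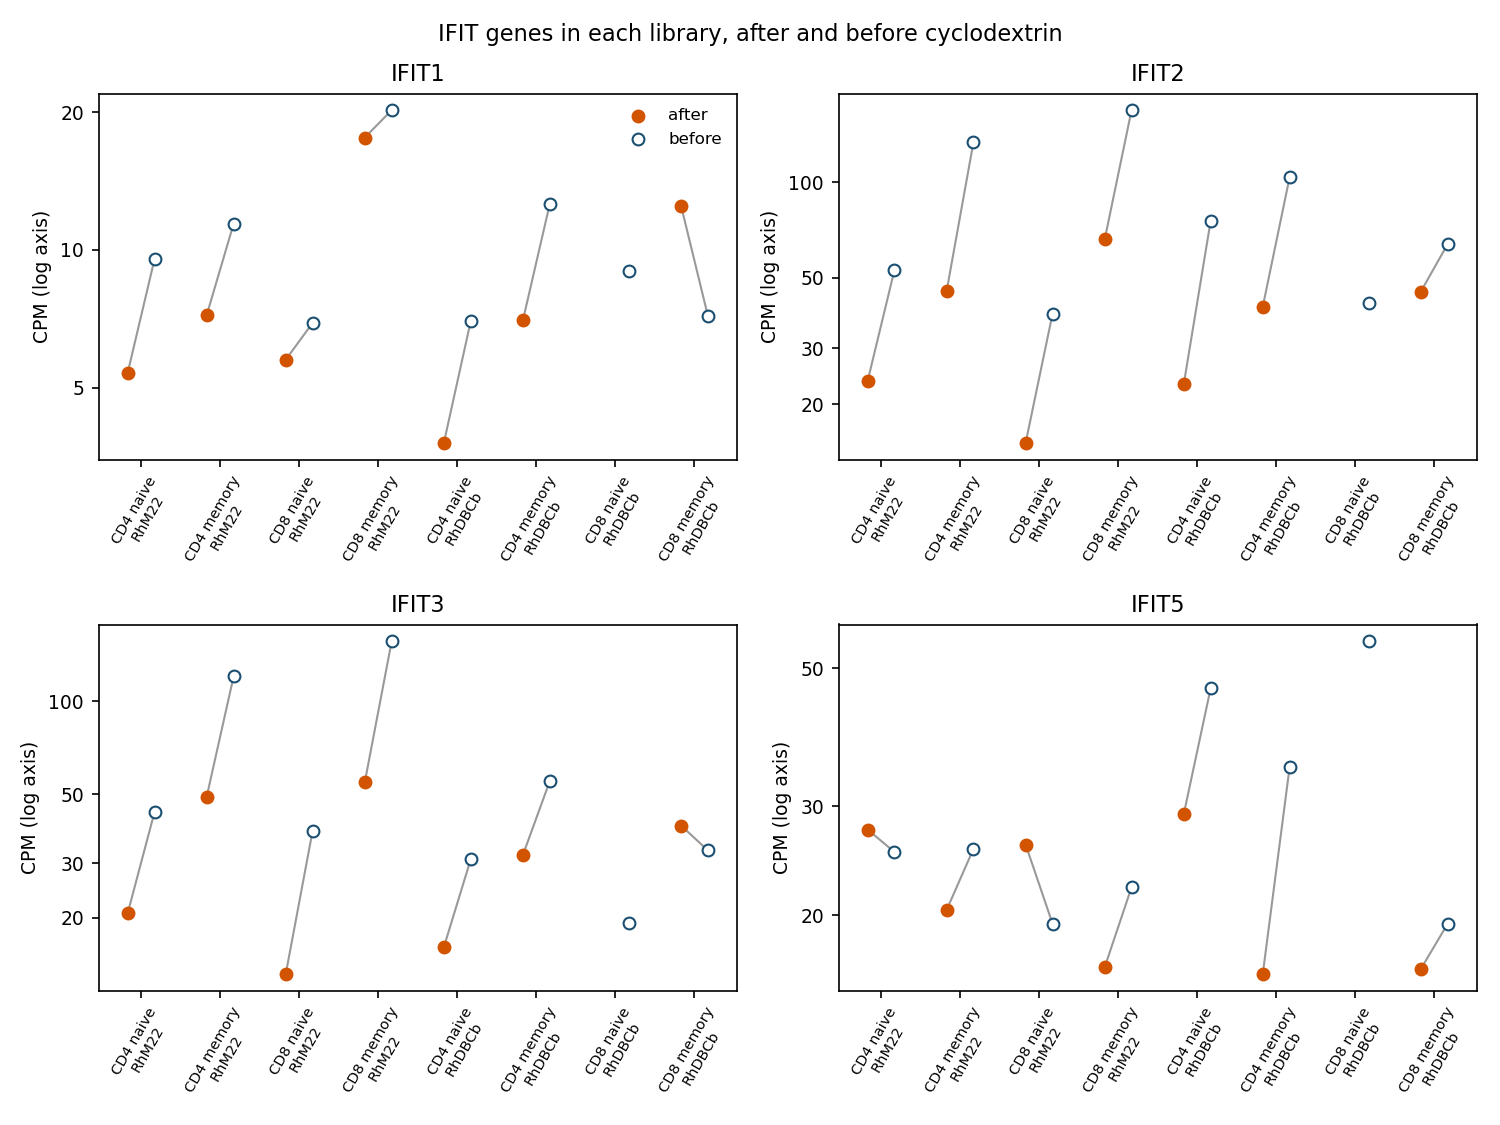
CPM of IFIT1, IFIT2, IFIT3 and IFIT5 in each library, on a log axis, by animal and subset, with the after and before points of a pair joined. IFIT2 is lower after treatment in 7 of 7 pairs and IFIT5 in 5 of 7. Over all libraries IFIT5 lies between 16.1 and 55.3 CPM.

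IFIT2 was lower after treatment in every pair. In RhM22 it lay at 45.4 CPM after and 134 CPM before in CD4 memory cells, 23.6 after and 52.9 before in CD4 naive cells, 66.1 after and 169 before in CD8 memory cells, and 15.1 after and 38.5 before in CD8 naive cells. In RhDBCb it lay at 40.6 CPM after and 104 CPM before in CD4 memory cells, 23.1 after and 75.5 before in CD4 naive cells, and 45.3 after and 64.0 before in CD8 memory cells. The RhDBCb CD8 naive library, drawn before treatment and without a partner, lay at 41.6 CPM. Within each subset the after libraries lay below the before libraries of both animals, except in CD8 memory cells, where RhM22 after, at 66.1 CPM, exceeded RhDBCb before, at 64.0 CPM.

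The paired log2 differences of IFIT2, after minus before, averaged -1.29 with an SD of 0.39 over the 7 pairs. The difference nearest 0 was -0.50, in CD8 memory cells of RhDBCb, and the one farthest was -1.71, in CD4 naive cells of RhDBCb. The fitted log2 fold change over all subsets was -1.36 with an SE of 0.18, a ratio of 0.389. Of all genes tested 0.00675% passed the threshold in this contrast, and because it chose the family nothing is read from where the members stand in it.

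IFIT3, the partner of IFIT2, had the lower value after treatment in 6 of 7 pairs. In RhM22 it lay at 49.2 CPM after and 120 CPM before in CD4 memory cells, 20.7 after and 43.9 before in CD4 naive cells, 54.8 after and 156 before in CD8 memory cells, and 13.2 after and 38.2 before in CD8 naive cells. In RhDBCb it lay at 31.9 CPM after and 55.2 CPM before in CD4 memory cells, 16.1 after and 30.9 before in CD4 naive cells, and 39.7 after and 33.0 before in CD8 memory cells. The unpaired RhDBCb CD8 naive library lay at 19.3 CPM. The 4 RhM22 pairs averaged a log2 difference of -1.35 (SD 0.21) and the 3 RhDBCb pairs -0.49 (SD 0.66), which hold no CD8 naive pair and run from -0.95 in CD4 naive to 0.27 in CD8 memory cells. The fitted log2 fold change was -1.03 with an SE of 0.19.

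IFIT1, the cap sensor, was also lower in 6 of 7 pairs, by less. In RhM22 it lay at 7.21 CPM after and 11.4 CPM before in CD4 memory cells, 5.39 after and 9.55 before in CD4 naive cells, 17.6 after and 20.2 before in CD8 memory cells, and 5.76 after and 6.93 before in CD8 naive cells. In RhDBCb it lay at 7.02 CPM after and 12.6 CPM before in CD4 memory cells, 3.79 after and 6.99 before in CD4 naive cells, and 12.5 after and 7.18 before in CD8 memory cells. The unpaired RhDBCb CD8 naive library lay at 9.01 CPM. CD8 memory cells of RhDBCb were the exception for IFIT1 as for IFIT3. The fitted log2 fold change of IFIT1 was -0.51 with an SE of 0.22, and the 7 paired log2 differences averaged -0.41 with an SD of 0.61.

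IFIT5, which works apart from the others, was lower in 5 of 7 pairs. In RhM22 it lay at 20.4 CPM after and 25.6 CPM before in CD4 memory cells, 27.5 after and 25.3 before in CD4 naive cells, 16.5 after and 22.2 before in CD8 memory cells, and 26.0 after and 19.4 before in CD8 naive cells. In RhDBCb it lay at 16.1 CPM after and 34.7 CPM before in CD4 memory cells, 29.1 after and 46.4 before in CD4 naive cells, and 16.4 after and 19.4 before in CD8 memory cells. The unpaired RhDBCb CD8 naive library lay at 55.3 CPM, the highest of all. Both pairs in which IFIT5 was higher after treatment were naive cells of RhM22. The fitted log2 fold change of IFIT5 was -0.42 with an SE of 0.19.

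**Figure D2:**
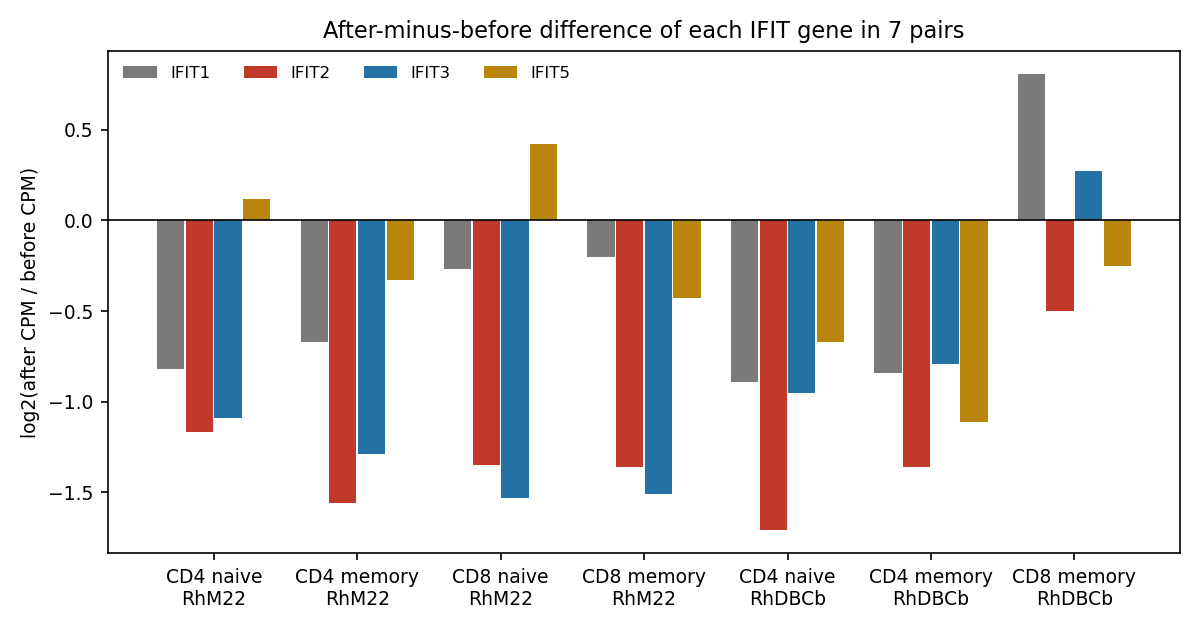
Bars give the log2 ratio of after over before CPM, with 1 colour per IFIT gene and 1 set of bars per pair of the same animal and subset. Every IFIT2 bar lies below 0, between -1.71 and -0.50, and the CD8 memory bars of RhDBCb lie above 0 for IFIT1 and IFIT3.

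The CD8 memory pair of RhDBCb was the highest of the 7 differences for IFIT1, IFIT2 and IFIT3. Without its before library the fitted log2 fold change was -1.49 for IFIT2, -1.18 for IFIT3, -0.67 for IFIT1 and -0.46 for IFIT5. The log2 difference between the changes of subsets, built from the same after and before values, was 0.02 (SE 0.51) for IFIT2 in CD4 memory minus CD4 naive cells and 0.43 (SE 0.51) in CD8 memory minus CD4 memory cells. The farthest from 0 of any member was 0.96 (SE 0.58), for IFIT1 in CD8 memory minus CD4 memory cells. The edgeR test of these differences called 0% of 14814 genes in either contrast, with 195 genes in CD4 memory minus CD4 naive cells and 137 in CD8 memory minus CD4 memory cells at an unadjusted p under 0.05, and DESeq2 called 1 and 0. In simulated data the test of CD4 memory minus CD4 naive cells found none of the genes given a changed difference, so its lack of calls says nothing of whether subsets changed alike, and the other contrast was not simulated.

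Some marker sums also differed with time. All 11 platelet markers of the list were measured, and their summed level was 15.7 to 116 CPM after and 3.26 to 71.6 CPM before, higher after in 6 of 7 pairs. All 11 monocyte and dendritic cell markers were measured at a summed 7.88 to 47.7 CPM after and 2.45 to 51.1 CPM before, higher after in 5 of 7 pairs, with CLEC10A at 0 in 12 of the 15 libraries. All 6 B cell markers were measured at a summed 19.7 to 112 CPM after and 16.2 to 109 CPM before, higher after in 6 of 7 pairs. Those rises were small, the largest from 22 CPM before to 28 CPM after, in CD4 naive cells of RhDBCb. The sum of the plasmacytoid dendritic cell list was higher after in 3 of 7 pairs and that of memory T cell markers in 4 of 7, so neither had a clear direction. The sum of naive T cell markers, 6 of 7 of them measured, was 5750 to 12800 CPM after and 4390 to 21100 CPM before, lower after in 5 of 7 pairs. Their part in the IFIT values was not tested. In bulk RNA, fewer cells with a transcript and less of it per cell cannot be told apart.

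IFIT2 and IFIT3 were higher in CD4 memory than in CD4 naive cells in each of the 4 draws. IFIT3 averaged 64.2 ± 38.7 CPM in CD4 memory and 27.9 ± 12.4 CPM in CD4 naive cells (SD, n = 4 each), and edgeR gave a log2 difference of 1.12 (SE 0.22, adjusted p = 0.00466). IFIT2 averaged 81.1 ± 45.7 CPM in CD4 memory and 43.8 ± 25.3 CPM in CD4 naive cells (SD, n = 4 each), with a log2 difference of 0.87 (SE 0.24, edgeR adjusted p = 0.0313). These were 2 of the 4 members, against 11.5% of all genes called in this contrast and 6.82% called higher. The large SDs hold the difference between draws, which the fit removes by treating the draw as a block.

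IFIT1 and IFIT5 did not pass in CD4 cells with all libraries. IFIT1 averaged 9.56 ± 2.86 CPM in CD4 memory and 6.43 ± 2.46 CPM in CD4 naive cells (SD, n = 4 each), a log2 difference of 0.61 (SE 0.30, edgeR adjusted p = 0.227) that was positive in 4 of 4 draws and passed without CD8 memory before of RhDBCb (0.59, edgeR adjusted p = 0.0456). IFIT5 averaged 24.2 ± 8.00 CPM in CD4 memory and 32.1 ± 9.64 CPM in CD4 naive cells (SD, n = 4 each), a log2 difference of -0.42 (SE 0.22, edgeR adjusted p = 0.254). It was lower in memory cells in 3 of 4 draws, so its sign ran against the other members without passing the threshold. The IFIT2 call in CD4 cells was lost, at edgeR adjusted p = 0.054 to 0.112, when any of 7 of the 8 CD4 libraries was left out, all but CD4 naive before of RhDBCb. Without the block for the draw the log2 difference was 0.89 for IFIT2 (edgeR adjusted p = 0.0838) and 1.19 for IFIT3 (0.141). On fewer samples the differences were of like size but did not pass, at 0.86 for IFIT2 (edgeR adjusted p = 0.366) and 1.12 for IFIT3 (0.209) in before libraries, and 0.90 for IFIT2 (0.155) and 1.14 for IFIT3 (0.0659) in after libraries.

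In CD8 cells 3 of the 4 members were higher in memory than in naive cells, against 16.5% of all genes called and 9.93% called higher. IFIT3 averaged 70.9 ± 57.6 CPM in 4 CD8 memory libraries and 23.6 ± 13.0 CPM in 3 CD8 naive libraries, a log2 difference of 1.72 (SE 0.25, edgeR adjusted p = 0.000436). IFIT2 averaged 86.1 ± 56.2 CPM in CD8 memory and 31.7 ± 14.5 CPM in CD8 naive cells, a log2 difference of 1.71 (SE 0.27, edgeR adjusted p = 0.000907). Within a draw, the log2 ratio of memory over naive CPM was 2.13 for IFIT2 and 2.05 for IFIT3 in RhM22 after, and 2.14 and 2.03 in RhM22 before, against 0.62 and 0.78 in RhDBCb before. Both were thus higher in 3 of 3 draws, and both calls held when any single library was left out, with a highest edgeR adjusted p of 0.0103 for IFIT2 and 0.00562 for IFIT3. On before libraries alone, which are fewer, neither passed, with 1.48 for IFIT2 (edgeR adjusted p = 0.0824) and an edgeR adjusted p of 0.0635 for IFIT3.

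IFIT1 averaged 14.4 ± 5.76 CPM in CD8 memory and 7.23 ± 1.64 CPM in CD8 naive cells, a log2 difference of 1.13 (SE 0.34, edgeR adjusted p = 0.0375). It was higher in memory cells in 2 of 3 draws. The exception was RhDBCb before treatment, at 7.18 CPM in CD8 memory and 9.01 CPM in CD8 naive cells. This call was lost when 1 of 8 libraries was left out, with edgeR adjusted p = 0.162 without CD8 naive before of RhM22, 0.146 without CD8 naive after of RhM22, 0.133 without CD8 memory after of RhM22 and 0.0886 without CD8 memory before of RhM22. It lay at 0.0565 without CD8 memory after of RhDBCb, 0.0521 without CD4 naive after of RhDBCb, 0.0516 without CD4 memory before of RhM22 and 0.0504 without CD4 naive after of RhM22. Without the block for the draw the log2 difference was 1.12 (edgeR adjusted p = 0.0878), on before libraries alone 0.68 (0.428) and on after libraries alone 1.53 (0.142).

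IFIT5 averaged 18.6 ± 2.76 CPM in CD8 memory and 33.6 ± 19.1 CPM in CD8 naive cells, a log2 difference of -0.64 (SE 0.24, edgeR adjusted p = 0.0893), and it was lower in memory cells in 2 of 3 draws. It passed, lower in memory cells, without CD8 naive before of RhM22 (-0.92, edgeR adjusted p = 0.0309) or without CD8 memory before of RhM22 (-0.82, edgeR adjusted p = 0.0481). It was nearest 0 without CD8 naive before of RhDBCb (-0.36, edgeR adjusted p = 0.423). In a plain share of the counts of the 4 members, IFIT5 took 6.03% to 16.8% in the 8 memory libraries and 18.8% to 44.2% in the 7 naive libraries. These shares did not overlap, but a share of IFIT5 is lower wherever the other members are higher, and IFIT5's own level did overlap, at 16.1 to 34.7 CPM in memory and 19.4 to 55.3 CPM in naive libraries. The share was chosen after the values were seen and has no test.

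**Figure D3:**
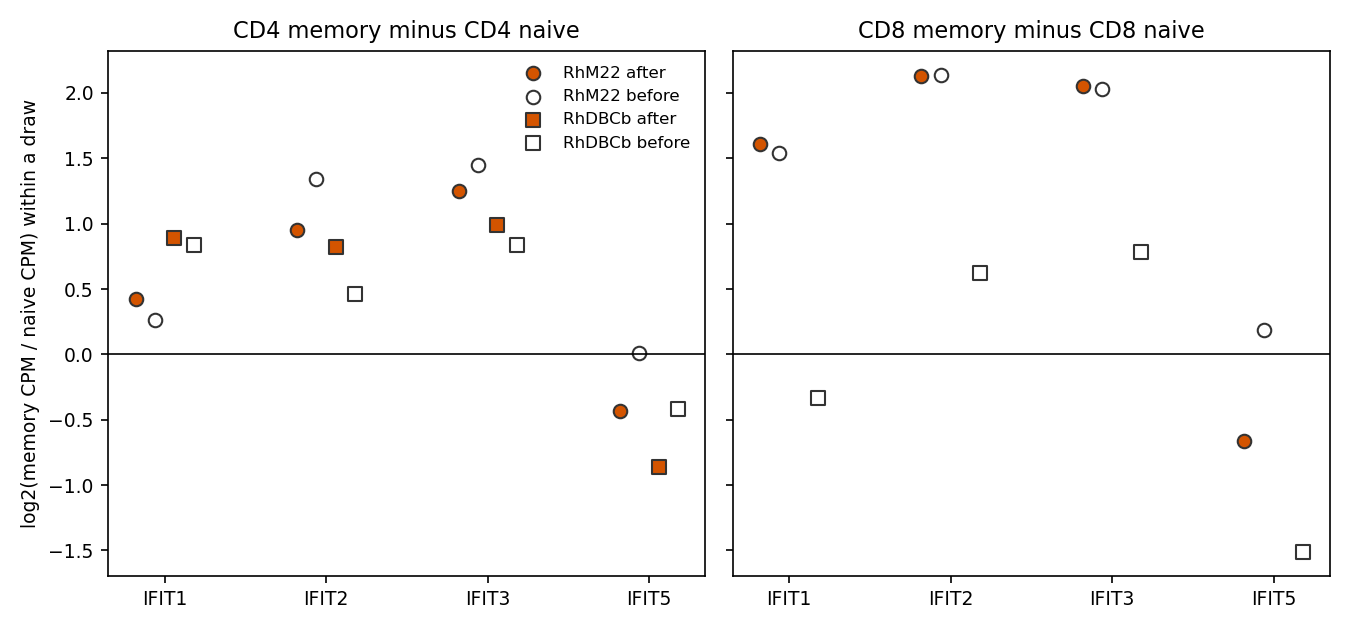
Log2 ratio of memory over naive CPM of each IFIT gene within a draw, for CD4 cells (left) and CD8 cells (right), 1 point per draw, with animal and time marked and a line at 0. All IFIT2 and IFIT3 points lie above 0, in 4 CD4 draws and 3 CD8 draws, and the CD8 points of RhDBCb before lie lowest for every gene.

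Among the other blood cells, platelet and B cell markers were lower in memory than in naive libraries in 7 of 7 draws and lineages, and monocyte and dendritic cell markers were higher in 5 of 7. The plasmacytoid dendritic cell list, 6 of 8 genes measured, was higher in memory libraries in 7 of 7. Its signal was mostly GZMB and IRF8, which T cells express. Its defining gene CLEC4C was at 0 in 14 of 15 libraries. TCF4 reached 4.01 CPM, JCHAIN 2.98 CPM and SERPINF1 0.266 CPM, each at 0 in 1 library. All 6 natural killer cell markers were measured, and their sum did not overlap, at 784 to 1500 CPM in CD8 memory and 107 to 374 CPM in CD8 naive libraries, and 80.0 to 98.8 CPM in CD4 memory and 3.96 to 19.2 CPM in CD4 naive libraries. The most abundant genes of that list were NKG7 and GNLY, which memory T cells also express. KLRF1 was found in every library, at 0.0455 to 61.9 CPM. NCR1 was at 0 in 5 of 15 libraries, NCAM1 in 3 and FCGR3 in 2. Their part in the IFIT difference was not tested.

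CD8 and CD4 cells of the same stage showed no called IFIT difference. Among naive cells, CD8 minus CD4, 3.37% of all genes were called and no member, with 2 members at an unadjusted p under 0.05 in edgeR and none called by DESeq2. The log2 differences there were -0.69 for IFIT2 (SE 0.26, edgeR adjusted p = 0.242) and -0.53 for IFIT3 (SE 0.24, edgeR adjusted p = 0.357), and both genes were lower in CD8 naive cells in 3 of 3 draws. Without CD8 memory before of RhDBCb the IFIT2 difference passed, at an edgeR adjusted p of 0.0237.

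Among memory cells, CD8 minus CD4, 8.24% of all genes were called and no member, with no member at an unadjusted p under 0.05 in edgeR or called by DESeq2. The log2 difference was 0.15 for IFIT2 (SE 0.24), 0.08 for IFIT3 (SE 0.21), 0.62 for IFIT1 (SE 0.30) and -0.31 for IFIT5 (SE 0.22). Without CD8 memory before of RhDBCb, IFIT1 passed at 0.96 with an edgeR adjusted p of 0.00907.

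**Figure D4:**
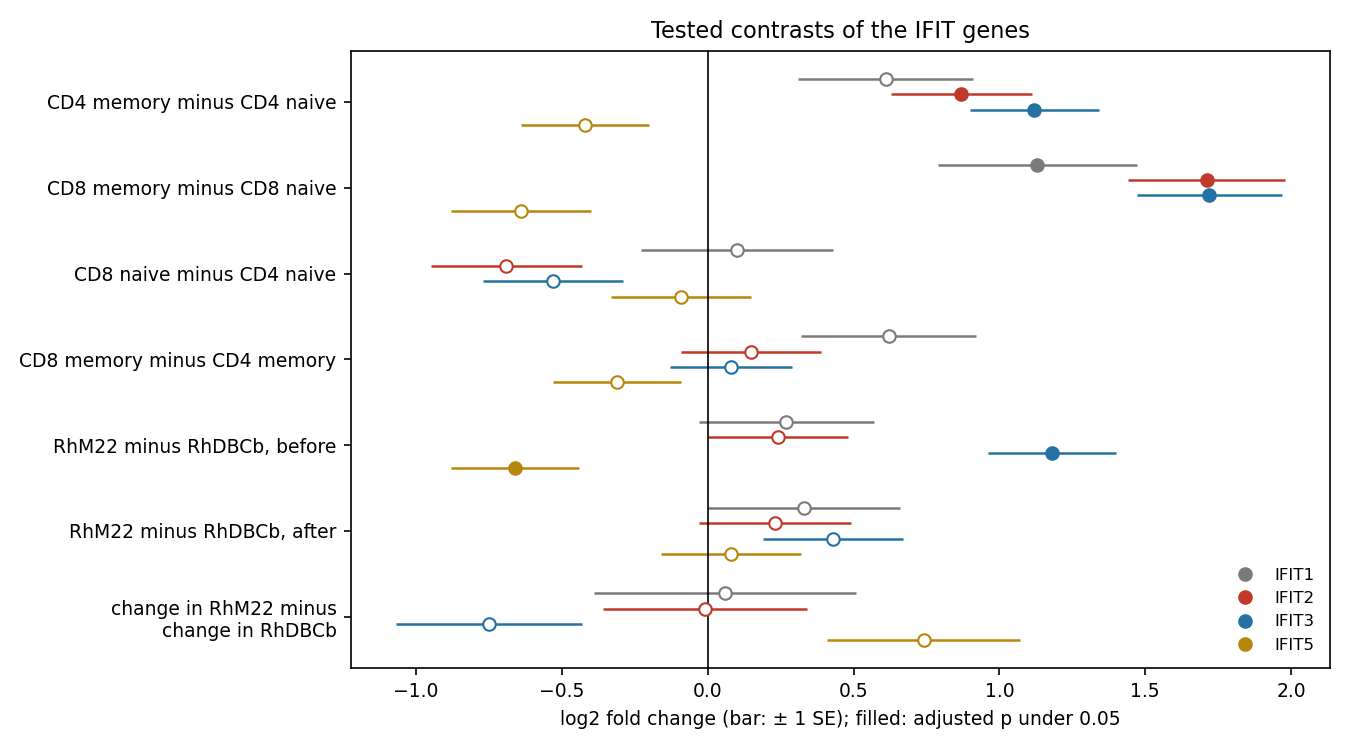
Fitted log2 differences of the IFIT genes with their SEs, with filled points for those called at an adjusted p under 0.05 in the tested contrasts. The change in RhM22 minus the change in RhDBCb is a description for these genes. The memory-minus-naive points of IFIT2 and IFIT3 lie above 0 in both lineages, and those of IFIT5 lie below 0 without being called.

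Before treatment 2 members were called between the animals. IFIT3 averaged 89.7 ± 58.1 CPM in RhM22 and 34.6 ± 15.0 CPM in RhDBCb (SD, n = 4 each), a log2 difference of 1.18 (SE 0.22, edgeR adjusted p = 0.000932) that stayed called without any 1 library. IFIT5 averaged 23.1 ± 2.94 CPM in RhM22 and 39.0 ± 15.5 CPM in RhDBCb (SD, n = 4 each), a log2 difference of -0.66 (SE 0.22, edgeR adjusted p = 0.0308) that ran from -0.86 to -0.44 with each library left out. IFIT2 differed by 0.24 (SE 0.24) and IFIT1 by 0.27 (SE 0.30), neither called. In this contrast 37.6% of all genes were called, 19.4% higher and 18.3% lower in RhM22, so 1 member in each direction is not far from that background. Summed platelet markers lay at 25.1 to 71.6 CPM in RhM22 before and 3.26 to 10.9 CPM in RhDBCb before. Monocyte and dendritic cell markers lay at 8.29 to 51.1 and 2.45 to 12.1 CPM, which overlapped, as did the other blood cell lists. Their part in the differences between animals was not tested.

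The IFIT5 call between animals was lost when 1 of 5 before libraries was left out. Its edgeR adjusted p was 0.147 without CD8 naive of RhM22 and 0.0963 without CD4 naive of RhM22. It was 0.121 without CD8 naive, 0.0625 without CD4 memory and 0.0575 without CD4 naive of RhDBCb.

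After treatment 6.44% of genes were called between the animals and no member, with no member at an unadjusted p under 0.05 in edgeR or called by DESeq2. IFIT3 then averaged 34.5 ± 20.6 CPM in the 4 RhM22 libraries and 29.2 ± 12.1 CPM in the 3 RhDBCb libraries, a log2 difference of 0.43 (SE 0.24). The change in RhM22 minus the change in RhDBCb is built from the after and before values that chose the family, so members are given without a test. IFIT3 lay at -0.75 (SE 0.32) and IFIT5 at 0.74 (SE 0.33). Of all genes 4.58% were called in this contrast. In simulated data its test found 10% of genes given a log2 change of 1 and 53% of those given 2. A lack of calls there would not show that the animals changed alike. IFIT2 differed by -0.01 (SE 0.35) and IFIT1 by 0.06 (SE 0.45).

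The balance of IFIT2 and IFIT3 set 1 of the 4 draws apart. Counts of IFIT2 over IFIT3 ran from 0.922 to 1.21 in RhM22 after, 1.01 to 1.21 in RhM22 before, 1.14 to 1.44 in RhDBCb after and 1.88 to 2.44 in RhDBCb before. All 4 RhDBCb before libraries lay above every other library, and the other draws overlapped. This ratio was picked out after the values were seen, the libraries of a draw share blood, and it has no test.

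**Figure D5:**
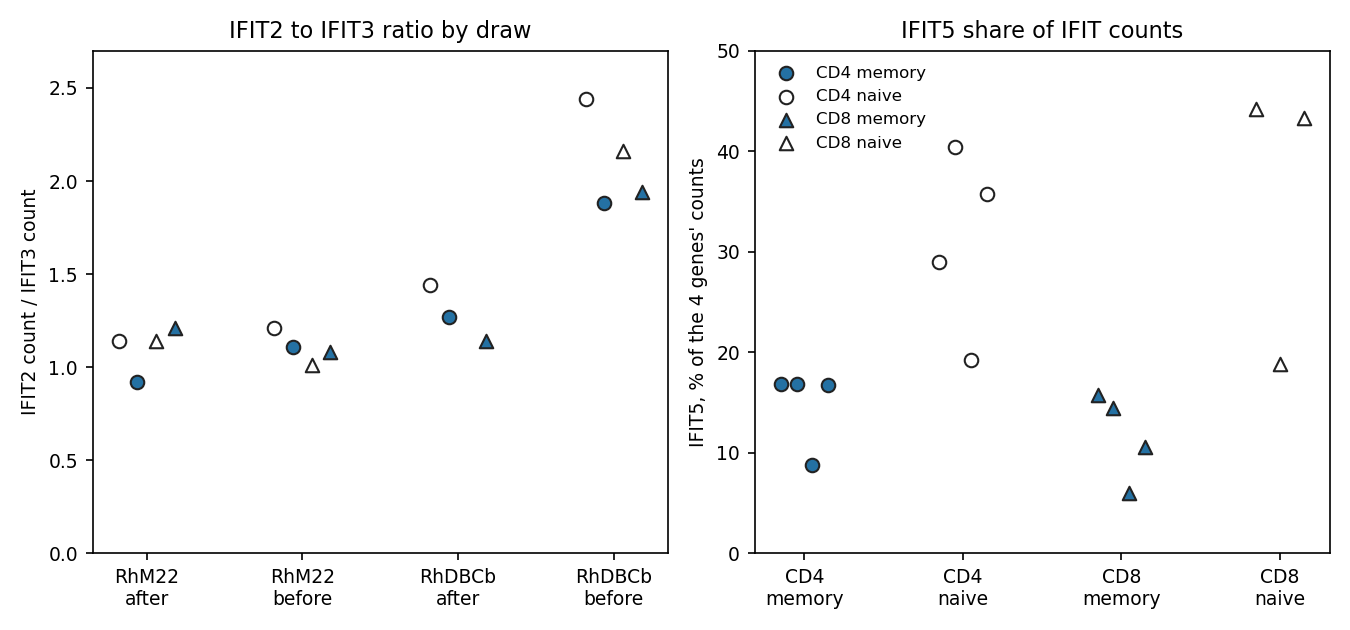
IFIT genes set against each other within each library: the IFIT2 over IFIT3 count ratio and the share of IFIT5 in the counts of the 4 members. RhDBCb before libraries hold the highest IFIT2 over IFIT3 ratios, at 1.88 to 2.44, and memory libraries the lowest IFIT5 shares, at most 16.8%.

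Across the 15 libraries IFIT2 and IFIT3 followed each other with Pearson r = 0.90 on log2 CPM. IFIT1 correlated with IFIT3 at 0.79 and with IFIT2 at 0.77, and IFIT5 with the others at -0.29 to 0.01. Libraries share animals and draws, so these values describe the libraries and carry no p. Of 8289 genes compared, those most like IFIT2 were TDP2 (0.91), IFIT3 (0.90), PFKP (0.87), PDIA3 (0.84) and KLHL2 (0.83). Those most like IFIT3 were IFIT2 (0.90), SCFD1 (0.88), NBN (0.87), ARF1 (0.86) and PFKP (0.86). IFIT1 lay closest to TANK (0.91), FRMD4B (0.87), MKRN1 (0.83), GPR18 (0.82) and ARAP2 (0.81), and IFIT5 to NEIL2 (0.94), THUMPD3 (0.93), MTERF4 (0.92), EIF1B (0.91) and MDM4 (0.91).

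No gene of the other interferon lists passed with treatment. Of 58 measured interferon-stimulated genes outside the family, none was called by edgeR in either direction, 6 had an unadjusted p under 0.05 and DESeq2 called 1. Their median log2 fold change was 0.03, against 0.01 over all genes. The GTPase MX1, which blocks viruses inside the cell, was fitted at 0.83 (edgeR adjusted p = 0.526), over unlike values in the animals. It ran from 42.8 to 70.1 CPM after and 6.93 to 20.8 CPM before in RhDBCb, and from 34.6 to 77.6 CPM after and 52.9 to 92.6 CPM before in RhM22. The ubiquitin-like ISG15 was fitted at -0.25 (edgeR adjusted p = 0.67) and the RNA-sensing enzyme OAS1 at -0.41 (edgeR adjusted p = 0.597). Of the 5 receptors, 11 relay genes, 16 sensors and adaptors and 10 interferon regulatory factors measured, edgeR and DESeq2 called none, and 1, 2, 4 and 3 of them had an unadjusted p under 0.05. These genes were measured in the same contrast that chose the IFIT family, so the members' values beside them are not evidence of a difference between the family and the pathway.

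Between memory and naive cells other interferon-stimulated genes were called as well. In CD8 cells 15 of 58 were called higher and 1 lower in memory cells, beside the 9.93% of all genes called higher, with a median of 0.37 against 0.03 over all genes. The antiviral OASL was higher by 4.30 and MX2 by 4.05 on the log2 scale, with edgeR adjusted p = 0.000339 and 0.000323. In CD4 cells 11 were higher and 1 lower, beside 6.82% of all genes called higher, with a median of 0.29 against -0.02 over all genes. Of 5 receptor genes 3 were called higher in CD8 and 2 in CD4 memory cells, none lower. Both chains of the type I interferon receptor were among them, IFNAR2 by 1.44 in CD8 and 1.15 in CD4 cells and IFNAR1 by 0.77 in CD8 and 0.93 in CD4 cells, with edgeR adjusted p between 4.68e-05 and 0.0205.

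Among sensors of nucleic acid and their adaptors, which stand upstream of interferon, 4 of 16 were called higher in CD8 and 2 of 16 in CD4 memory cells, beside 9.93% and 6.82% of all genes. The median of the list was 0.04 in CD8 cells, against 0.03 over all genes, with 9 of 16 above 0. In CD4 cells it was 0.31 against -0.02, with 12 of 16 above 0. These few calls are not read as a result about the list. The adaptor TICAM1 was higher by 1.68 in CD8 and 0.96 in CD4 memory cells (edgeR adjusted p = 0.000178 and 0.00474), and the DNA sensor CGAS by 2.04 in CD8 memory cells (edgeR adjusted p = 0.000105). Of 11 relay genes 2 were called in CD8 cells, beside 16.5% of all genes, and 1 in CD4 cells, beside 11.5%, and of 10 interferon regulatory factors 2 were called in each lineage, so neither list is read as a result.

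Between the animals before treatment 38 of the 58 were higher and 3 lower in RhM22, beside 19.4% of all genes called higher and 18.3% called lower, with a median of 0.69 against 0.07 over all genes. MX1 was higher in RhM22 by 2.66 (edgeR adjusted p = 1e-06). In the change of RhM22 minus the change of RhDBCb, 10 of 58 were called, beside 4.58% of all genes, and all 10 were below 0, among them MX1 at -2.89 (edgeR adjusted p = 0.000289). IFIT3 at -0.75 had the same sign there and IFIT2 at -0.01 lay near 0, both given without a test. Interferon ligands were barely measured, with at most 9 counts in any library for 8 genes found.

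In the T2T-MMU8v2.0 assembly of RefSeq the cluster lies on chromosome 9 in the order IFIT2, IFIT3, IFIT1B, IFIT1 and IFIT5, after LIPA and before SLC16A12 and PANK1. LIPA, the lysosomal lipase that frees cholesterol from its esters, had a treatment log2 fold change of -0.06 (SE 0.13, edgeR adjusted p = 0.915). PANK1, an enzyme of coenzyme A synthesis, had one of 0.24 (edgeR adjusted p = 0.768), and SLC16A12 had no counts in any library. The list of genes beside the cluster is not limited to those named above. Of 7 of its genes tested none was called by edgeR with treatment, 1 had an unadjusted p under 0.05 and DESeq2 called none. Between memory and naive cells 1 of the 7 was called in each lineage, beside 11.5% of all genes in CD4 and 16.5% in CD8 cells. It was STAMBPL1, higher in memory cells by 2.05 in CD4 and 2.02 in CD8 (edgeR adjusted p = 8.12e-05 and 0.000144). STAMBPL1 was on the list but not among the nearest genes placed here in the assembly.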

How the data were processed

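RNA was measured in 15 libraries. Per the labels' protocols, purification used the RNeasy Micro kit and library preparation SMART-Seq v4. How subsets were separated is not given in the sources used here. The authors deposited expected counts for 34884 genes, unscaled, and FPKM for 28331 of those genes. The submitters' processing notes name RSEM 1.3.3, STAR 2.7.6a and cutadapt 1.18, with builds rheMac10 and Mmul_10. No position is printed, because the RefSeq table is of another assembly.

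Counts were rounded, shifting a library's total by up to 26.1. Genes were filtered with filterByExpr (groups of subset and time, minimum count 10), which left 14814. Counts were scaled by TMM, CPM came from the scaled totals, and differences were tested with the quasi-likelihood F test of edgeR 4.0.16 in R 4.3.3, with Benjamini-Hochberg adjustment over all genes and a threshold of 0.05. All libraries shared 1 estimate of the spread. SEs were computed as the size of the log2 fold change over the square root of F. Treatment was fitted with subset and animal, subset and animal contrasts with the 4 draws as terms, and differences of changes with 8 groups of subset and time plus animal. The test was checked on simulated data. Alternatives were DESeq2 1.42.0, its size factors, no filter, other blocks, single times and each library left out.

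Libraries are paired because the labels name the animal. Across genes, which are not independent replicates, deviations of an animal's after and before libraries correlated at 0.378 for CD4 memory, 0.276 for CD4 naive and 0.26 for CD8 memory cells. Members and lists were chosen with earlier results of these data known. The text names the 4 members, up to 3 called genes per direction of each list with a mean CPM of at least 5, a fixed panel, and the 5 genes most like each member. A gene that this rule took is not reported here, and all fits and counts keep it.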

Additional observations from a re-analysis of the deposited data

How the results depend on the processing

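The IFIT calls held under DESeq2, under its size factors and without the filter. Those between memory and naive cells also held with animal and time as additive terms, which were not fitted for the contrast between animals. With DESeq2 the genes called were 177 for treatment (1 in edgeR), 2694 for CD4 memory minus CD4 naive (1708), 1086 for CD8 naive minus CD4 naive (499), 2065 for CD8 memory minus CD4 memory (1221), 1698 for animal-by-time (679), 2188 between animals after treatment (954) and 1 for the difference of changes of CD4 memory and CD4 naive (0). Without the replicate block they were 0 for treatment, 502 for CD4 memory minus CD4 naive, 941 for CD8 memory minus CD8 naive (2448), 196 for CD8 naive minus CD4 naive and 384 for CD8 memory minus CD4 memory. In the same order of those 4 subset contrasts, before libraries alone called 141, 539, 109 and 147 genes and after libraries alone 334, 308, 70 and 213, from fewer samples. Treatment averaged over the animals in the model of 4 draws called 200 genes. Members called in CD4 memory minus CD4 naive were 0 without the block or at a single time, against 2, and in CD8 memory minus CD8 naive 0 before treatment, against 3. A single time holds fewer samples, and the cause of the loss without the block was not tested. No unblocked fit was possible between the animals, since the draw is the contrast.

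Values near 0 changed sign. The difference of changes of CD4 memory and CD4 naive was -0.01 for IFIT2 without the block and 0.02 for IFIT3 with an animal-by-time term. CD8 naive minus CD4 naive was 0.01 for IFIT5 with additive terms, and CD8 memory minus CD4 memory on before libraries was -0.07 for IFIT2 and -0.08 for IFIT3.

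With each library left out in turn, genes called ran from 0 to 3 for treatment, 1052 to 2188 for CD4 memory minus CD4 naive, 1371 to 2658 for CD8 memory minus CD8 naive, 316 to 612 for CD8 naive minus CD4 naive, 766 to 1392 for CD8 memory minus CD4 memory, 99 to 1314 for animal-by-time, 4322 to 5733 between animals before and 215 to 2077 after treatment. The lowest for animal-by-time, 99, came without CD8 naive before of RhM22, and the lowest after treatment, 215, without CD4 naive after of RhDBCb. Members called ran from 1 to 3, 2 to 3, 0 to 1 and 0 to 1 in the 4 subset contrasts and 1 to 2 between animals before treatment. Signs turned for CD8 naive minus CD4 naive in IFIT1 (-0.17 to 0.29) and IFIT5 (-0.39 to 0.17), CD8 memory minus CD4 memory in IFIT2 (-0.01 to 0.42) and IFIT3 (-0.08 to 0.33), animal-by-time in IFIT1 (-0.23 to 0.43) and IFIT2 (-0.26 to 0.29), animals before treatment in IFIT1 (-0.06 to 0.46) and IFIT2 (-0.05 to 0.45), and animals after treatment in IFIT5 (-0.08 to 0.21). They also turned for the changes of CD4 memory against CD4 naive in IFIT1 (-0.15 to 0.40), IFIT2 (-0.46 to 0.42) and IFIT3 (-0.31 to 0.31), and of CD8 memory against CD4 memory in IFIT2 (-0.10 to 1.22), IFIT3 (-0.34 to 1.22) and IFIT5 (-0.03 to 0.74). None of those in the tested contrasts was called with all libraries. The treatment log2 fold change kept its sign for each member, at -1.49 to -1.26 for IFIT2, -1.18 to -0.89 for IFIT3, -0.67 to -0.43 for IFIT1 and -0.51 to -0.30 for IFIT5. The family was chosen by this change in these libraries, so a kept sign is a description and no support for it.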
